A study of Mus musculus with 6 samples.

Results

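Type I interferon-stimulated genes were followed as a module of 35 listed genes through the immune cells of mouse lung with and without acute myeloid leukaemia (AML). The members were taken by gene symbol from the list. Of the 35, 33 were matched among the 32285 features of the count matrices, and Mx1 and Mx2 are not analysed here. By role, the measured members were 4 IFIT proteins, 5 oligoadenylate synthetases, the pair Rsad2 and Cmpk2, 3 genes of the ISG15 system, 7 nucleic acid sensors, 3 membrane proteins, the transcription factor gene Stat2 and 8 others.

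The study compared 3 single-cell RNA libraries of normal mouse lung (normal 1 to 3) with 3 of lung infiltrated by AML (AML 1 to 3). In both groups the lungs were perfused and digested with collagenase and DNase I, cells carrying the leukocyte protein CD45 were held back on antibody-coated magnetic beads, and the 3′ ends of their polyadenylated RNA were counted with unique molecular identifiers (UMIs). The labels give no strain, age, sex, treatment or AML model. They do not say how many animals a library holds or which cells are leukaemic, so the p-values measure the spread between libraries only.

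Type I interferons bind a shared receptor, IFNAR, on almost every nucleated cell. Its kinases activate transcription factors that bind a short DNA element, the interferon-stimulated response element, near the induced genes. The products block viral RNA and its translation, sense foreign nucleic acids, tag proteins with ISG15 and limit the signal itself.

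The DNA in front of 4 members is shown because the pathway reaches its targets there. Ifit3, Rsad2 and Ifit2 are the members whose AML effect differed between monocyte classes, and Isg15 encodes the tag that the pathway attaches to proteins. RefSeq promoter entries on GRCm38.p6, a release of the mm10 build named in the submitters' processing notes, were matched for 24 of the 35 members, with 250 bases before and 50 after the start of transcription. The core of the response element was searched as GAAA, any 2 bases and GAAA again, on both strands and with overlaps allowed. It was found for 16 of these 24 members (66.7%) and for 3.99% of all 27025 genes with an entry. The 250 bases before the start are printed 5′ to 3′ in the direction of the gene, with matches on either strand in capitals. A match describes letters, not a measured binding site.
Ifit3 (chr19:34583279-34583528, plus strand): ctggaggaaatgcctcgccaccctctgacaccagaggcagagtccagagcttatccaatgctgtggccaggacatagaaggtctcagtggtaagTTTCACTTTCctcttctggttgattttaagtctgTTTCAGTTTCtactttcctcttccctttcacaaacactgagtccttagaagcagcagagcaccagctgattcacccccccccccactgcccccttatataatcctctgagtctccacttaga
Rsad2 (chr12:26456453-26456702, minus strand): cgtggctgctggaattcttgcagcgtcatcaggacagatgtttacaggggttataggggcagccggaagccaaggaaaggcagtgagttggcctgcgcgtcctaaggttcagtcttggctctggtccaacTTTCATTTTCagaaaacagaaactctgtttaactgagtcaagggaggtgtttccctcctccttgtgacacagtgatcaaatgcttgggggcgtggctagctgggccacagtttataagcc
Ifit2 (chr19:34550444-34550693, plus strand): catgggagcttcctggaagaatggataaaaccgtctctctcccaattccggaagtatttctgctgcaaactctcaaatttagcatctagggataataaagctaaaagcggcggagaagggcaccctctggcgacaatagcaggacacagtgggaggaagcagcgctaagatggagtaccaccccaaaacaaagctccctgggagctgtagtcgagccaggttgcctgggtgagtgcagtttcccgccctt
Isg15 (chr4:156200819-156201068, minus strand): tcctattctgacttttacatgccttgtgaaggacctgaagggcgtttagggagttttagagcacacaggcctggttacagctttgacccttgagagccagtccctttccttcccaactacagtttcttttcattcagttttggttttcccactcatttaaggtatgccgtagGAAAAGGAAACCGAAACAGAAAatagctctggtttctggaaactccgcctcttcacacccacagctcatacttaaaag
Isg15 held 3 overlapping matches that began 78, 72 and 66 bases before the start. Ifit3 held 2, at 156 and 122 bases, and Rsad2 held 1, at 120 bases. Neither of the 2 entries of Ifit2 held these letters, and the same was true of Oasl1, Oasl2, Ifi44, Ifi209, Xaf1, Cmpk2 and Herc6.

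Several members are neighbours in the genome (GENCODE vM21, GRCm38). The 4 IFIT genes lie at chr19:34550694-34650009 on the plus strand, Rsad2 and Cmpk2 within chr12:26442746-26479837 on opposite strands, and Ifi209, Ifi204 and Ifi211 within chr1:173630917-173913046. Ifit3 and Ifit3b, the Oas and Oasl genes, the Ifi200 genes and the Slfn genes include close copies, so how their reads were divided is uncertain. Counts of 3′ ends are not scaled by length, and levels are compared within a gene and not between genes.

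The libraries held 73095 barcodes and 43913245 to 66513826 UMIs each, and 71634 cells passed the filters. A cell was assigned to a class when it held 2 or more markers of a list. Their UMIs also had to be at least 2 times those of every other list. By this rule 53616 cells were assigned and carry the name of that list. All markers of the 7 main lists were detected in their own class in every library. The same markers chose the cells, so this does not test the names. Ptprc, the gene of CD45, stood at 1791, 1679 and 1942 CPM (UMIs scaled to a common total) in normal and 2561, 2300.1 and 2198 CPM in AML libraries. AML 3 stood apart, with 35391 barcodes, a median of 1067 UMIs and 63.5% of cells assigned, against medians of 2740 to 9381 and 80.4 to 93.7% in the others. Any pair of libraries shared 2 to 118 barcodes. Free RNA was estimated from genes a class should lack, and the largest estimate was kept as an upper one. In AML 3 it was 80.5% for neutrophils, 54.9% for B cells and 41.1% for classical monocytes. In nonclassical monocytes it was highest in AML 2, at 40.7%.

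In normal lung the members were highest in classical monocytes and neutrophils and lowest in alveolar macrophages and NK cells. Each of 7 classes was compared with the mean of the other 6 over the 3 normal libraries (edgeR, library as block, 13135 genes, adjusted p under 0.05). In classical monocytes 32 of 33 members were higher (31.1% of all genes were) and Ly6a was lower. In neutrophils 24 were higher (32.1% of all genes) and Bst2 and Ifi209 were lower. In nonclassical monocytes 21 were higher (29.3% of all genes) and Ddx58, an RNA sensor, was lower. The median difference of the members was 2.66 on the log2 scale in classical monocytes, 2.13 in neutrophils and 0.81 in nonclassical monocytes, against -0.01, -0.12 and 0.01 over all genes.

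T cells had 7 members higher and 14 lower (36.4% and 29.3% of all genes), and B cells 3 higher and 16 lower (35.8% and 27.4%). NK cells had 0 higher and 27 lower by edgeR (28.7% and 27.2%), and 0 higher also at an unadjusted p under 0.05. Alveolar macrophages had 1 higher and 28 lower (41.4% and 33.2%). That 1 was Ifih1, which encodes MDA5, a sensor of long double-stranded RNA. The 3 in B cells were Ly6a, Ifi209 and Oasl1, and the 7 in T cells were Ly6a, Ifi209, Herc6, Ifi27l2a, Ifit2, Ifit1 and Usp18.

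Classical monocytes held the highest mean for 21 members, for 17 without overlap with the next class, neutrophils for 11, for 8 without overlap, and B cells for Ly6a. The share of all genes that lead or stand apart in each class is not given here. These counts alone thus do not set the members apart from other genes. Among the IFIT genes, whose proteins bind foreign RNA and block its translation, Ifit2 and Ifit3 led in classical monocytes and Ifit1 and Ifit3b in neutrophils. Ifit1 stood at 46.1, 33 and 55.5 CPM in neutrophils and 23.5, 16 and 15.4 CPM in classical monocytes of the 3 normal libraries. Among the oligoadenylate synthetases, Oasl2 stood at 345, 333 and 271 CPM in neutrophils and 179, 149 and 136 CPM in classical monocytes. Neutrophils lay above classical monocytes in every normal library for both genes.
Rsad2 encodes viperin, which makes an antiviral nucleotide, and stood at 213, 201 and 139.8 CPM in neutrophils and 60.3, 49.5 and 48.4 CPM in classical monocytes. Isg15, the ubiquitin-like modifier, stood at 204 ± 24 and 118 ± 21.2 CPM in the same classes (SD, n = 3). Of the 7 sensors classical monocytes held the highest mean for 6, with overlap for Zbp1, and neutrophils for Ddx58, also with overlap. Ifi204, a DNA sensor, stood at 442 ± 59.3 CPM in classical monocytes and 190.5 ± 17.1 CPM in nonclassical monocytes, the next class. Stat2 stood at 120.3 ± 24.5 and 60.7 ± 3.05 CPM in these monocytes, and Slfn5, of the Schlafen family, at 489 ± 76.7 CPM in classical monocytes and 138 ± 35.8 CPM in neutrophils. Ifi204, Stat2 and Slfn5 did not overlap between their leading classes.
Ifitm3, which hinders the entry of enveloped viruses, stood at 3016, 3227 and 2889 CPM in classical and 1581, 2066 and 1809.9 CPM in nonclassical monocytes. Ly6a, the surface protein Sca-1, stood at 177, 210.1 and 135 CPM in B cells and 103, 112 and 88.9 CPM in T cells, and higher, at 1172, 1659 and 1171 CPM, in endothelial cells, which stand outside the 7 classes. Bst2, the virus tether tetherin, stood at 2036 and 2470.2 CPM in plasmacytoid dendritic cells of normal 1 and normal 3, and at 179, 198 and 164 CPM in classical monocytes. The leading and next class overlapped for Zbp1, Oas2, Oas3, Cmpk2, Herc6, Ddx58 and Ifi44.

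**Figure D1:**
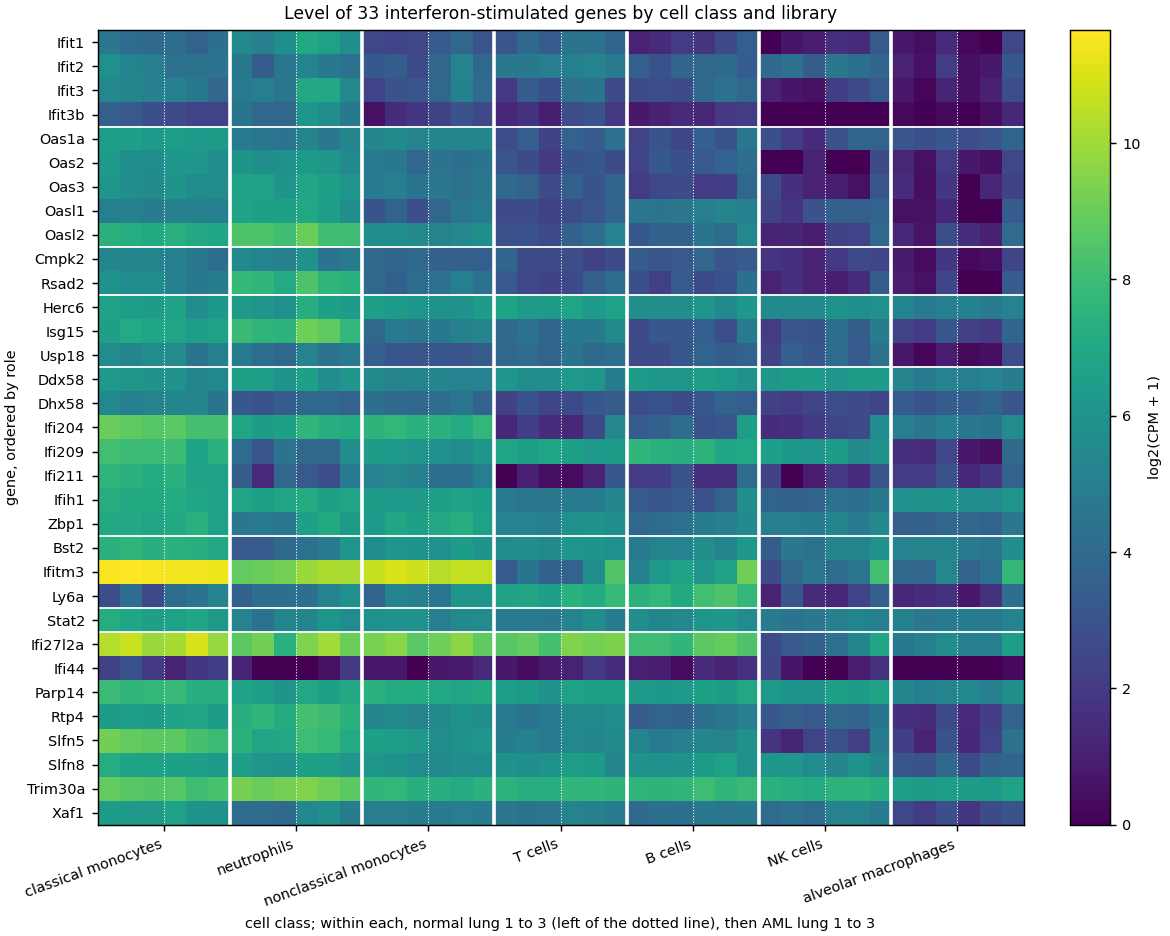
Level of each measured member (rows, ordered by role) as log2(CPM + 1) in 7 cell classes, with normal 1 to 3 left and AML 1 to 3 right of each dotted line. Classical monocytes or neutrophils hold the highest normal mean for 32 of the 33 members, all but Ly6a, and many members are near 0 in NK cells and alveolar macrophages.

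A member was counted above free RNA in a library when the lower bound of its exact 95% Poisson interval, which covers counting error only, exceeded the estimate for its class. In every library this held for 31 of 33 members in nonclassical monocytes (not Ifi44 and Ifit3b), 30 in classical monocytes (not Ly6a, Ifi44 and Ifit3b), 27 in neutrophils, 21 in T cells, 14 in alveolar macrophages, and 12 each in B cells and NK cells. It held for 13 in endothelial cells and 12 in plasmacytoid dendritic cells, each over 5 libraries. Requiring 2 times the free RNA level left 15 in nonclassical monocytes, 12 in T cells, 10 in neutrophils, 8 in alveolar macrophages, 7 in NK cells and 3 in B cells. The share of all genes past these rules is not given here. The counts thus do not set the members apart from other genes, and they depend on the estimate of each class.
Herc6, Parp14, Stat2, Trim30a, Slfn8 and Ddx58 exceeded the free RNA estimate in every library of all 7 classes. Herc6 is the main ligase of ISG15 in mice. In NK cells 12 members exceeded it in no library: Ifi204, Ifi211, Ifi27l2a, Ifit1, Ifit3, Ifit3b, Ifitm3, Ly6a, Oas2, Oasl2, Rsad2 and Slfn5. Their levels in NK cells cannot be told apart from free RNA. The same held in T cells for Ifi204 and Ifi211, and in alveolar macrophages for Ifi44. The estimate was too high in places: T cells of AML 1 held 11.7 CPM of Ifitm3 where it gave 198 CPM. The same share was applied to every gene of a class in a library. Other genes of those cells may thus also have been held to too high a level.

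**Figure D2:**
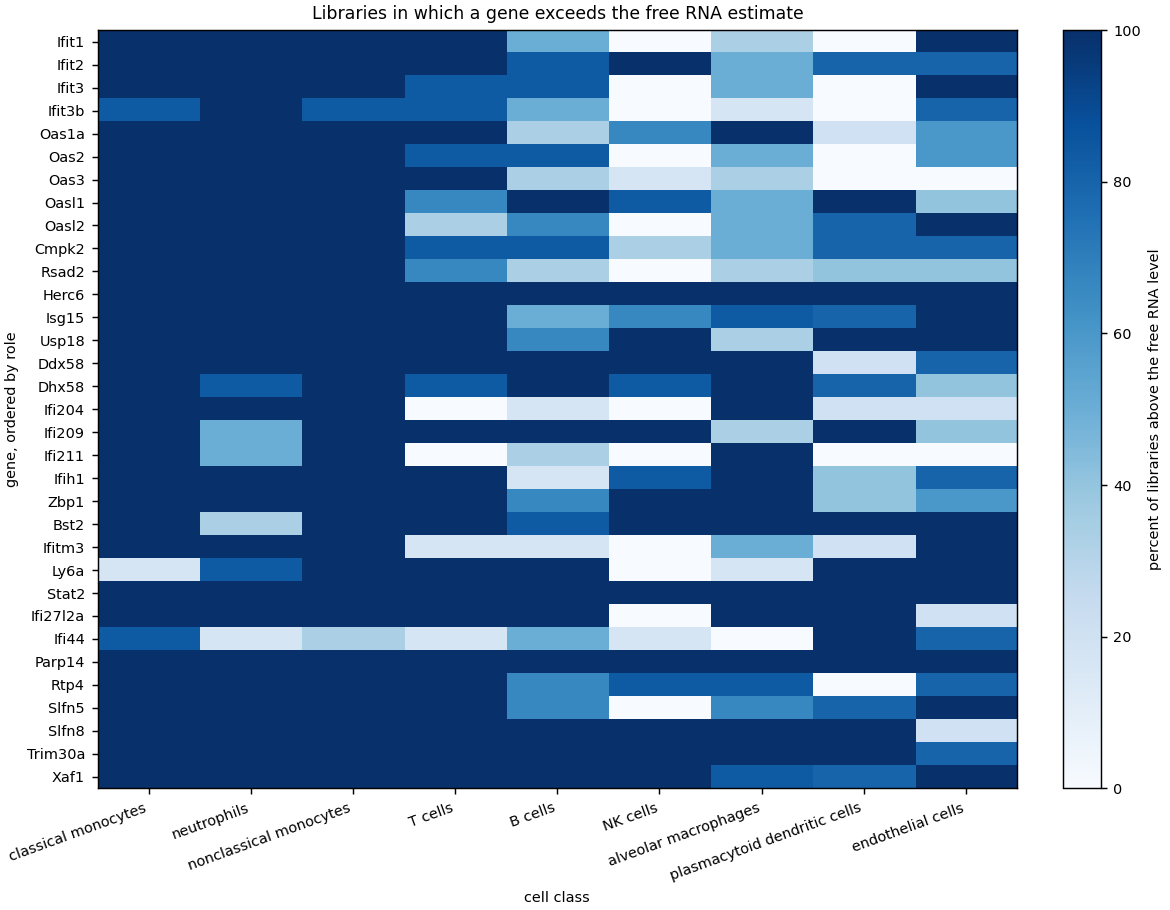
Percent of libraries in which each member (rows) exceeded the free RNA estimate in 9 classes (columns), from white (0) to dark blue (100). The monocyte columns are dark for 30 and 31 members, and 12 members are white in NK cells.

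Summed over all kept cells of a library, 20 of the 33 members were higher in AML lung and 0 were lower (edgeR, adjusted p under 0.05), where 6.04% of 16808 genes were higher, 3.44% lower and 9.48% called in all. All 33 changes were positive, with a median of 0.73 on the log2 scale against 0.00 over all genes. Ifit1 stood at 6.65, 6.47 and 7.08 CPM in normal lung and at 15, 15.8 and 18.9 CPM in AML lung (log2 change 1.43, SE 0.14, adjusted p = 0.00862). Rtp4, a receptor-transporting chaperone that also restrains viral replication, stood at 25.4, 29.9 and 28 CPM and at 50.8, 67.2 and 68.2 CPM (log2 change 1.29, SE 0.14, adjusted p = 0.00915). Zbp1, a sensor of Z-form nucleic acid, stood at 29, 39 and 40.03 CPM and at 94.6, 118 and 73.6 CPM (log2 change 1.54, SE 0.20, adjusted p = 0.0111). For all 3 genes every AML library lay above every normal one.
Isg15 stood at 29.2, 32.2 and 31.2 CPM in normal lung and at 55.7, 53.8 and 76.9 CPM in AML lung and rose by 1.14 on the log2 scale. Oas1a, which makes the activator of RNase L, stood at 17.8, 20.7 and 17.5 CPM and at 32.6, 34.9 and 39.1 CPM and rose by 1.06, and Ifit3b, at 2.67, 2.72 and 2.13 CPM and at 6.27, 7.72 and 7.24 CPM, rose by 1.62. Ifi204 stood at 82.1, 82.5 and 77.4 CPM and at 129, 122 and 155 CPM and rose by 0.88, and Ifitm3, at 459, 649.6 and 606 CPM and at 968, 1269 and 1231 CPM, rose by 1.15. The adjusted p of these 5 genes (edgeR) was 0.00998 to 0.0162, and the groups were apart for each. By role, 3 of 4 IFIT genes, 5 of 5 oligoadenylate synthetases, 1 of 3 genes of the ISG15 system, 1 of the pair Rsad2 and Cmpk2, 2 of 3 membrane proteins, 3 of 7 sensors, 5 of 8 others and not Stat2 passed.
The count was 0 without normal 1 and 0 without normal 2, 11 without AML 1, 13 without AML 2 and 10 without normal 3, where 0%, 0%, 1.69%, 2.68% and 2.93% of all genes were called. With a block for the library number it was 4 (0.428% of genes).

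In such sums fewer cells of a type and less RNA per cell cannot be told apart, and the make-up of the libraries differed. Nonclassical monocytes were 12 ± 1.45% of kept cells in normal and 37.7 ± 16.7% in AML lung (SD, n = 3), and alveolar macrophages held 37.7 ± 13.1% and 8.21 ± 3.66% of UMIs. As a description with no test, the class levels of normal lung were combined with the UMI shares of AML lung, and the reverse. For Ifitm3 the assigned cells differed by 1.11 on the log2 scale, the shares alone gave 1.22 and the levels alone 0.13. For Oas3 these values were 0.78, 0.96 and 0.00, and for Ifit3 1.67, 0.51 and 1.21. Ly6a gave -0.56 from shares and 0.63 from levels. The members thus differed in how much of the whole-library value was also present within classes.

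In classical monocytes 2 of 33 members fell in AML lung and 0 rose, where 0.866% of 9929 genes were lower and 2.29% were called in either direction. Rsad2 stood at 60.3, 49.5 and 48.4 CPM in normal lung and at 33.1, 25.6 and 28.9 CPM in AML lung (log2 change -0.89, SE 0.17, adjusted p = 0.0340). Ifit2 stood at 57.3, 37.7 and 30.4 CPM and at 19.2, 19.2 and 20.8 CPM (log2 change -1.09, SE 0.23, adjusted p = 0.0476). All AML libraries lay below all normal ones for both genes, which exceeded free RNA in each library. Of the 33 members 27 had a negative change, with a median of -0.31 against 0.02 over all genes, and 12 had an unadjusted p under 0.05 (22.8% of all genes did), 11 of them lower. DESeq2 called 4 members (5.55% of 9923 genes given an adjusted p): Ifit2, Rsad2 and Slfn5 were lower, and Ly6a was higher by 1.39 on the log2 scale (adjusted p = 0.0349). The summed markers of nonclassical monocytes in this class were 428 to 515 CPM in normal lung and 548 to 679 CPM in AML lung, and their part in the result was not tested. Both calls were lost without any 1 library other than AML 3, and with cells named from clusters.

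In nonclassical monocytes 0 of 32 members tested passed (edgeR; 3.38% of 11309 genes did, 1.9% higher and 1.48% lower), while 13 had an unadjusted p under 0.05 (21.5% of all genes did), 8 higher and 5 lower. Ifit3 stood at 4.03, 6.88 and 7.45 CPM in normal lung and at 14.3, 33.5 and 15.9 CPM in AML lung (log2 change 1.81, SE 0.39, adjusted p = 0.0504). Ifit1 stood at 4.70, 4.13 and 4.58 CPM and at 9.63, 13.8 and 7.30 CPM (log2 change 1.23, SE 0.28, adjusted p = 0.0580). Oasl1, which restrains the translation of Irf7, stood at 7.16, 12.4 and 5.92 CPM and at 13.4, 22.7 and 25.9 CPM (log2 change 1.29, SE 0.34, adjusted p = 0.0825). The groups were apart for all 3 genes, each above free RNA in every library, while the median over the members was -0.05 against 0.01 over all genes. The 4 IFIT genes had positive changes, with a median of 1.55.
DESeq2 called 6 members (9.33% of 10858 genes given an adjusted p). Ifit3, Oasl1, Ifit1, Ifit2 and Ifit3b were higher and Slfn5 was lower, by -0.56 on the log2 scale. EdgeR with a block for the library number called 5, all higher (6.95% of genes). Without AML 3 edgeR called 8, where 14.3% of all genes were called: Ifit1 (1.42), Ifit3 (1.97), Ifit2 (1.69) and Rsad2 (0.90, log2 changes) were higher. Ifi211, Slfn5, Ifi209 and Stat2 were lower, with changes of -1.01, -0.64, -0.51 and -0.65.

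Whether the AML effect differed between the monocyte classes was tested as an interaction, with the library as block. The difference passed for 3 of 33 members, where 1.05% of 11473 genes passed, 0.68% with the higher effect in nonclassical monocytes. The effect in nonclassical minus classical monocytes was 2.5 (SE 0.43, adjusted p = 0.0346) on the log2 scale for Ifit2, 2.54 (SE 0.44, adjusted p = 0.0349) for Ifit3 and 1.68 (SE 0.30, adjusted p = 0.0388) for Rsad2. In nonclassical monocytes Ifit2 stood at 8.28, 9.81 and 5.15 CPM in normal lung and at 13.3, 35.7 and 13.6 CPM in AML lung, and Rsad2 at 14.8, 11.2 and 16.4 CPM and at 19.8, 31.9 and 19.1 CPM. Both were higher in every AML than in every normal library there, and lower in every AML library in classical monocytes. In nonclassical monocytes, however, the upper free RNA estimate reached 40.7%, in AML 2. Rsad2 stood at 31.1, 29.9 and 47.3 CPM in the whole libraries AML 1 to 3. The part of free RNA in these differences was not tested. Ifit3 in classical monocytes stood at 41, 38.5 and 32.3 CPM in normal lung and at 32.5, 25.4 and 13.6 CPM in AML lung, which overlap.
The number of members passing was 6 without AML 1 (0.79% of all genes), 8 without AML 3 (8.23%), and 0 without AML 2 or any 1 normal library, and the differences of the 3 genes ran from 1.31 to 2.98 over these fits. Against alveolar macrophages, B cells, T cells and NK cells 0 members passed (edgeR; 0.389%, 0.0241%, 0.0162% and 0.0172% of genes did; against B cells 0.0161% were higher and 0.00805% lower), with 3, 11, 10 and 14 of 32 members at an unadjusted p under 0.05 (15.7%, 9.83%, 8.57% and 11.6% of all genes). Without AML 3 these counts were 1 (Ifih1), 0, 4 (Stat2, Oasl2, Slfn5 and Parp14) and 3 (Stat2, Xaf1 and Parp14), where 5.95%, 1.24%, 2.37% and 1.76% of genes passed.

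In neutrophils 0 of 32 members passed (edgeR; 0% of 8452 genes did), with 10 at an unadjusted p under 0.05 (14% of all genes), all higher, and 5 called by DESeq2 (2.39% of 6647 genes given an adjusted p). Zbp1 stood at 23.8, 26.3 and 22.8 CPM in normal lung and at 93.4, 133 and 79.9 CPM in AML lung (log2 change 2.02, SE 0.29, adjusted p = 0.184). Ifitm3 stood at 458, 507 and 599 CPM and at 947, 1191 and 1156 CPM (log2 change 1.0, SE 0.22, adjusted p = 0.184). Xaf1, a promoter of apoptosis, stood at 16.3, 16.8 and 15.4 CPM and at 42.9, 52.3 and 29.8 CPM (log2 change 1.32, SE 0.32, adjusted p = 0.210). The groups were apart for all 3 genes, each above free RNA in every library. In AML 3, however, the upper free RNA estimate for this class was 80.5%. Zbp1, Ifitm3 and Xaf1 stood at 73.6, 1231 and 31.4 CPM in that whole library. The part of free RNA in the differences was not tested. The median over the members was 0.60 against 0.06 over all genes. The summed markers of nonclassical monocytes in this class were 995 to 1087 CPM in normal lung and 1323 to 1684 CPM in AML lung, and their part in the result was not tested.
Ifit3 stood at 26.7, 31.3 and 22.8 CPM in normal lung and at 129.7, 131 and 43.2 CPM in AML lung, with AML 3 the lowest of the AML libraries. Without AML 3, 7 members were higher, where 0.801% of all genes were called: Ifit3, Zbp1, Xaf1, Isg15, Ifit3b, Ifit1 and Ifitm3, by 1.08 to 2.32 on the log2 scale.

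In T cells 0 of 31 members passed (edgeR; 0% of 10921 genes did), with 15 at an unadjusted p under 0.05 (7.87% of all genes), all higher, and 0 called by DESeq2 (0.103% of 10701 genes given an adjusted p). Rtp4 stood at 26.5, 20.5 and 26.5 CPM in normal lung and at 44.7, 43.6 and 51.7 CPM in AML lung (log2 change 0.94, SE 0.16, adjusted p = 0.622). Zbp1 stood at 34.7, 34.6 and 32.4 CPM and at 57.6, 61.7 and 53.6 CPM (log2 change 0.79, SE 0.15, adjusted p = 0.622). Ly6a stood at 103, 112 and 88.9 CPM and at 174, 141 and 219.8 CPM (log2 change 0.81, SE 0.17, adjusted p = 0.622). The groups were apart for all 3 genes, and each exceeded free RNA in every library, with estimates of 19.4, 19.8 and 16.7 CPM for Zbp1 in AML 1 to 3. Of the members 28 had a positive change, with a median of 0.56 against 0.03 over all genes. Without AML 3, Zbp1 (0.86), Rtp4 (0.89) and Ifit3 (1.78, log2 changes) passed, where 0.475% of all genes were called.

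In B cells 0 of 31 members passed (edgeR; 0% of 11376 genes did), with 16 at an unadjusted p under 0.05 (9.13% of all genes), all higher, and 1, Ifi27l2a, called by DESeq2 (5.19% of the 790 genes that it gave an adjusted p). Ifit3 stood at 5.53, 6.04 and 5.38 CPM in normal lung and at 14.9, 19.4 and 13.6 CPM in AML lung (log2 change 1.51, SE 0.22, adjusted p = 0.523). Zbp1 stood at 13.8, 16.7 and 19.5 CPM and at 28.5, 32.4 and 44.2 CPM (log2 change 1.07, SE 0.22, adjusted p = 0.523). Rtp4 stood at 9.04, 12.4 and 11.47 CPM and at 18.8, 22.8 and 30.2 CPM (log2 change 1.12, SE 0.24, adjusted p = 0.523). The groups were apart for all 3 genes, yet in AML 3 the lower bound of the interval of each did not exceed its free RNA estimate of 10.2, 40.3 and 37.4 CPM, while all did in AML 1 and AML 2. The summed markers of nonclassical monocytes in this class were 134 to 196 CPM in normal lung and 257 to 775 CPM in AML lung, and their part in the result was not tested. Of the members 30 had a positive change, with a median of 0.69 against 0.02 over all genes; without AML 3 the median was 0.43 and 0 passed (edgeR, 0% of all genes).

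In NK cells 0 of 19 members passed (edgeR; 0.127% of 9474 genes did, 0.095% higher and 0.0317% lower), with 13 at an unadjusted p under 0.05 (15.4% of all genes), all higher, and 2, Bst2 and Ifi27l2a, called by DESeq2 (3.48% of 5607 genes given an adjusted p). Ifi27l2a, a small hydrophobic protein gene, stood at 4.99, 8.47 and 11.4 CPM in normal lung and at 19.5, 39.9 and 113 CPM in AML lung (log2 change 2.74, SE 0.59, adjusted p = 0.137). Its free RNA estimates in AML 1 to 3 were 45.2, 82.5 and 117 CPM, above the level measured in each. Xaf1 stood at 16.2, 19.5 and 16.5 CPM and at 34.7, 36.3 and 26.2 CPM (log2 change 0.99, SE 0.22, adjusted p = 0.137), and Bst2 at 9.97, 24.8 and 19.1 CPM and at 38.1, 36.8 and 59.97 CPM (log2 change 1.36, SE 0.32, adjusted p = 0.140). Both were apart between groups and above free RNA in every library. Without AML 3, Ifi27l2a and Xaf1 passed, where 0.98% of all genes did.

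Alveolar macrophages had 0 of 24 members called (edgeR; 0% of 11625 genes), 0 at an unadjusted p under 0.05 (8.88% of all genes) and 0 by DESeq2 (1.65% of 3508 genes given an adjusted p). Ly6a stood at 1.47, 1.83 and 2.18 CPM in normal lung and at 0.751, 2.23 and 18.8 CPM in AML lung (log2 change 2.07, SE 0.95, adjusted p = 0.572). Ifitm3 stood at 14.8, 13.4 and 40.5 CPM and at 12.2, 20.1 and 217 CPM (log2 change 1.93, SE 1.02, adjusted p = 0.602). Zbp1 stood at 10.7, 10.8 and 13.4 CPM and at 13.3, 11.9 and 23.8 CPM (log2 change 0.54, SE 0.27, adjusted p = 0.595). AML 3 was the highest library for all 3 genes, its free RNA estimates for Ly6a and Ifitm3 were 19.5 and 204 CPM, and without it their changes were -0.43 and -0.52. With cells named from clusters Ifitm3 passed in this class.

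Among smaller classes, cDC1, mature dendritic cells, plasmacytoid dendritic cells and endothelial cells could be tested, with 10, 20, 19 and 29 members, and 0 passed (edgeR; 0.0195%, 0%, 0% and 0% of genes did). At an unadjusted p under 0.05 there were 3, 1, 4 and 13 (8.89%, 4.64%, 9.94% and 16% of all genes), and DESeq2 called 4 members in endothelial cells (3.43% of 7319 genes given an adjusted p). There Ifi27l2a stood at 20.6, 30.2 and 36.3 CPM in normal 1 to 3 and at 149.6 and 190.2 CPM in AML 2 and AML 3 (log2 change 2.51, SE 0.28, adjusted p = 0.0633). AML 1 had 14 endothelial cells, under the minimum of 20, and the free RNA estimate in AML 2 was 92.2%. Interstitial macrophages numbered 2, 17 and 16 in the normal libraries, too few for the test.

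**Figure D3:**
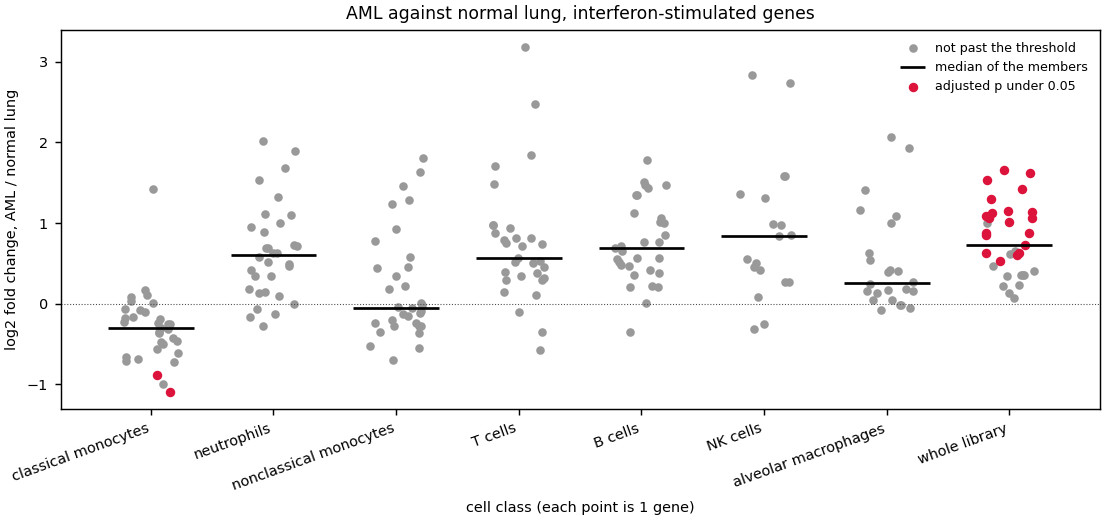
Log2 fold change, AML over normal lung, of each tested member (points) in 7 classes and in whole libraries; red points have an edgeR adjusted p under 0.05 and bars are medians of the members. The red points are 20 genes above 0 in whole libraries and Rsad2 and Ifit2 below 0 in classical monocytes.

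**Figure D4:**
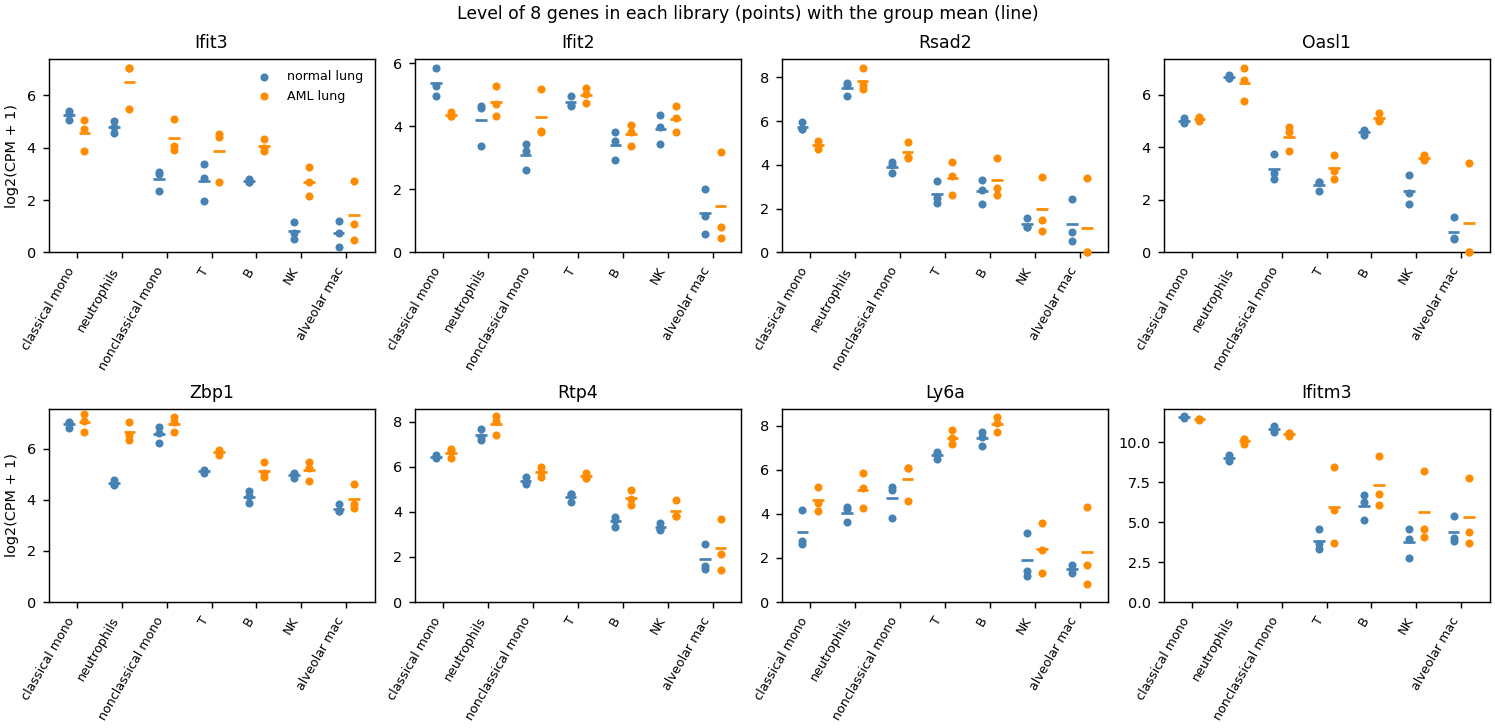
Level as log2(CPM + 1) of 8 members in 7 classes, with libraries as points (blue normal, orange AML, n = 3 each) and group means as lines. Ifit2 and Rsad2 lie lower in AML lung in classical monocytes and higher in nonclassical monocytes, and for Ly6a and Ifitm3 in alveolar macrophages 1 AML point lies above all others.

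Each AML library was also set against the 3 normal ones on CPM scaled by the trimmed mean of M values. In neutrophils 30 of 32 members lay above all normal libraries in AML 1 (30.6% of all genes did), 18 in AML 2 (34.2%) and 13 in AML 3 (40.5%), with 0, 6 and 12 below (29.5%, 31.9% and 36.3%). In classical monocytes 11, 24 and 24 of 33 lay below in AML 1, 2 and 3 (33.6%, 33.9% and 28.7%). In alveolar macrophages 1, 3 and 20 of 24 lay above (31.5%, 38.8% and 36.3%), so AML 3 differed in direction from the other 2 there.
In T cells 23, 25 and 20 of 31 members lay above (30.2%, 32.5% and 38% of all genes), in B cells 23, 19 and 25 of 31 (31.3%, 31.3% and 35.5%) and in NK cells 15, 14 and 15 of 19 (30%, 32.9% and 33.9%). Nonclassical monocytes were split, with 9, 15 and 12 of 32 above (32.5%, 36.5% and 31.5%) and 12, 13 and 9 below (31.7%, 34.4% and 31.3%). Above all 3 normal libraries in all 3 AML libraries were 14 members in T cells (8.36% of all genes), 13 in B cells (8.27%), 11 in NK cells (11.1%), 9 in neutrophils (9.86%) and 8 in nonclassical monocytes (14.3%). Below in all 3 were 9 in classical monocytes (13.1%) and 5 in nonclassical monocytes (13.7%).

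To set cells of different depth side by side, each cell was thinned to 500 UMIs, the minimum for a kept cell, and counted when it held 2 or more of 29 members; Bst2, Ifitm3, Ly6a and Ifi27l2a were left out because they are often high without interferon. In neutrophils the share was 26.4 ± 2.70% in normal and 39.2 ± 6.95% in AML lung, in B cells 6.69 ± 0.258% in normal and 12.2 ± 2.62% in AML lung and in T cells 6.73 ± 1.55% in normal and 10.3 ± 0.389% in AML lung (SD, n = 3; exact two-sided permutation p = 0.1 for each, the smallest that 3 against 3 libraries allow, adjusted p = 0.367 over 11 classes). All AML libraries lay above all normal ones in these 3 classes. The share that free RNA alone would give, by the upper estimate, was 0.103 to 0.127% in normal and 0.252, 1.33 and 14.3% in AML 1 to 3 for neutrophils, where 46.1, 39.5 and 32.2% were measured. For B cells it was 0.00904 to 1.76% in normal and 0.225, 1.03 and 7.58% in AML 1 to 3, where 14.5, 9.36 and 12.6% were measured. For T cells it was 0.183 to 0.239% in normal and 0.713 to 1.54% in AML lung. Cells that reach 2 members with 1 of their own and 1 from free RNA are not in these values, and the part of free RNA in the differences was not tested. In classical monocytes the share was 39.5 ± 4.34% in normal and 37.2 ± 7.57% in AML lung, in nonclassical monocytes 16.2 ± 3.45% in normal and 13.5 ± 2.70% in AML lung, in NK cells 4.80 ± 0.793% in normal and 6.17 ± 1.38% in AML lung and in alveolar macrophages 1.51 ± 0.228% in normal and 2.40 ± 1.55% in AML lung (exact permutation p = 0.6, 0.5, 0.2 and 0.6).
Without thinning the shares were 78.9 ± 15.4% in normal and 79.1 ± 18.5% in AML lung for neutrophils, 62.6 ± 18.5% in normal and 58.5 ± 26.1% in AML lung for B cells and 76.8 ± 14.4% in normal and 65.3 ± 30.9% in AML lung for T cells. Median depth in B cells was 2323 to 7098 UMIs in normal and 943 to 6595 UMIs in AML libraries.

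**Figure D5:**
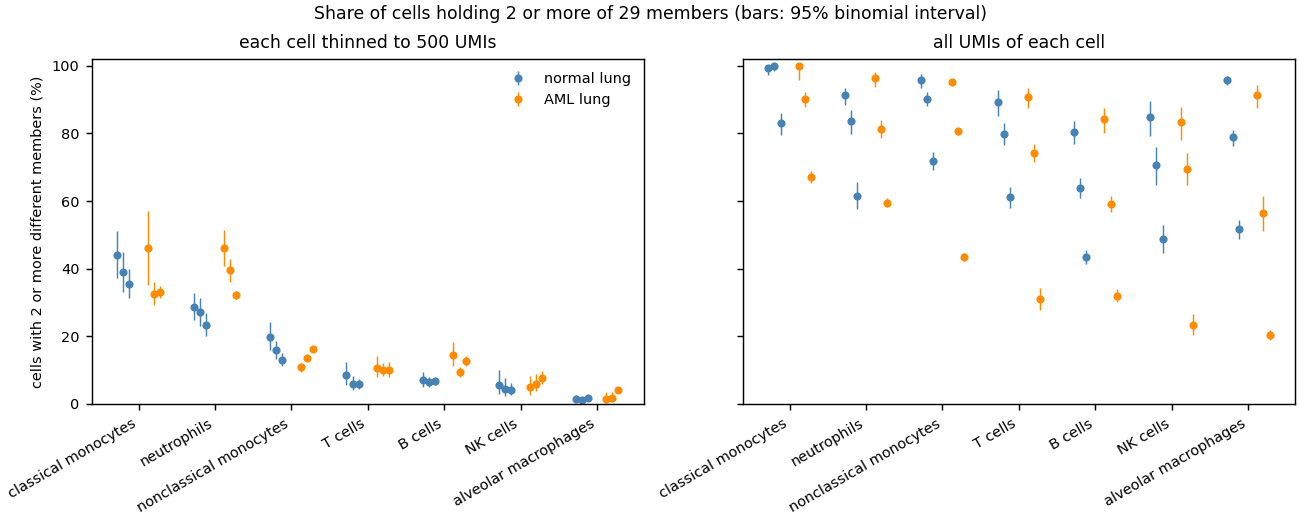
Percent of cells with 2 or more of 29 members in each library (points with 95% binomial intervals, which cover counting error only; blue normal, orange AML), with cells thinned to 500 UMIs at left and all UMIs at right. At left the AML points lie above the normal points in neutrophils, T cells and B cells.

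Of 31 other pathway genes chosen by function, 26 were tested in whole libraries, and 7 were higher and 1 lower (6.04% and 3.44% of all genes). As for the members, none of these passed without normal 1 or without normal 2, and the make-up of the libraries differed. Irf7, which amplifies interferon production, changed by 1.38 on the log2 scale, Irf9 by 0.58, the receptor subunit gene Ifnar2 by 0.75, Ifngr1 by 0.47, the feedback inhibitor Socs3 by 1.62, the checkpoint ligand gene Cd274 by 1.12, the adaptor Myd88 by 0.54 and Mavs, the adaptor of RNA sensing, by -1.13. In nonclassical monocytes, with 22 tested, Socs3 (1.09) and Cd274 (1.68) were higher and Tlr7, an endosomal RNA receptor (-0.72), and Ifngr1 (-0.55) were lower. Of all genes there 1.9% were higher and 1.48% lower. In classical monocytes 1 of 22 passed, Socs3 (1.02), where 1.42% of all genes were higher and 0.866% lower. Irf7 did not pass in B cells, where it stood at 7.79, 12.8 and 8.92 CPM in normal lung and at 25.7, 21.3 and 31.7 CPM in AML lung, apart between the groups. In B cells 8.27% of all genes lay above all 3 normal libraries in all 3 AML libraries. In AML 3 the upper free RNA estimate for B cells was 54.9%, and Irf7 stood at 57 CPM in that whole library. The part of free RNA in the Irf7 difference was not tested.
Few interferon transcripts were counted. Of 20 type I and type III interferon genes 6 had UMIs, 127 in all. Most of these were from Ifnk, with 10, 16 and 14 in normal 1 to 3 and 12, 30 and 18 in AML 1 to 3. Ifnb1, which is made early on sensing of nucleic acid, had 20, all in AML 2 and in 4 cells: 2 nonclassical monocytes with 7 and 10, and 2 unassigned cells with 1 and 2. Ifng, the type II interferon, had 192 to 427 UMIs in each library.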

How the data were processed

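The deposited files hold raw UMI counts per gene and barcode, made by the authors with Cell Ranger 7.0.0 on mm10, per the submitters' processing notes. Cells with at least 500 UMIs, at least 200 genes and under 10% mitochondrial UMIs were kept. Classes were assigned from fixed marker lists that hold no member, and 18018 kept cells stayed unassigned. Doublets were not removed; Scrublet's method marked 0.877 to 4.70% per library, and cells in which no list reached 2 times the UMIs of every other stayed unassigned. Between libraries of a group the chi-square per degree of freedom was 40.3 to 163, so none was a copy.

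Counts were summed per class and library with 20 or more cells and tested with edgeR 4.0.16 (quasi-likelihood, TMM scaling, filterByExpr) in R 4.3.3. P-values were adjusted over all genes tested by Benjamini-Hochberg, threshold 0.05, and SE is the change divided by the square root of F. Levels are plain CPM. DESeq2 1.42.0 was an alternative. Members outside the low count filter of a class were not tested there. On simulated counts 4-fold changes were recovered for 92.9 to 100% of genes and 2-fold changes for 15.6 to 66.0% over 6 comparisons. For the interaction of the monocyte classes 79.5% were recovered at 4-fold. The simulation gave all genes of a comparison the same dispersion, a preset one for the interaction, so these shares need not hold for the data. Members with log2 changes up to 2.02 in neutrophils and 3.18 in T cells did not pass.

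Values are given for members past the threshold (at most 8 per class), otherwise for the 3 with the smallest p, for leading classes of each role, and for members past an interaction test. Members, lists and tests were chosen with earlier results of these data known. Other settings and libraries left out are described in the closing section.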

Additional observations from a re-analysis of the deposited data

Results flagged for a closer look

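The AML effect differed between nonclassical and classical monocytes by an interaction test with the library as block (edgeR, Benjamini-Hochberg over 11473 genes). The effect was higher in nonclassical monocytes by 2.5 on the log2 scale for Ifit2, by 2.54 for Ifit3 and by 1.68 for Rsad2. All 3 differences kept their sign in 6 of 6 fits that left out 1 library, and none passed the threshold without AML 2 or without any 1 of the normal libraries. The part of free RNA in these differences was not tested.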

How the results depend on the processing

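Counts of members past the threshold moved most. With DESeq2 they were 6 in nonclassical monocytes (Slfn5 lower, the rest higher) and 4 in classical monocytes (3 lower, Ly6a higher). They were 5 in neutrophils, 1 in B cells, 2 in NK cells and 4 in the smaller classes. With cells named from clusters they were 5, 0 and 2 in nonclassical monocytes, classical monocytes and neutrophils, 1 in alveolar macrophages (Ifitm3), 2 in NK cells and 1 in the smaller classes. Without a low count filter they were 6, 9 and 6 in the same 3 classes, 1 in T cells, 9 in NK cells and 13 in the smaller classes. Cells with 1000 UMIs and 500 genes gave 2 in nonclassical monocytes and 1 in the smaller classes. A marker ratio of 3, chosen after seeing the data, gave 2 in nonclassical monocytes, 1 in classical monocytes and 1 in NK cells. For cells named from clusters, no low count filter, 1000 UMIs and the marker ratio of 3, the share of all genes called is not given here. These counts thus do not tell a shift of the members from a shift of all genes. The cause of these shifts was not tested.

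With a replicate block the counts were 5 in nonclassical monocytes, 3 in classical monocytes (Rsad2, Slfn5 and Ifit2, 4.99% of all genes), 1 in NK cells (1.08%), 4 in whole libraries and 4 in the smaller classes (2 each in cDC1, 1.6%, and endothelial cells, 1.96%). The labels share only a number. In nonclassical monocytes same-numbered libraries correlated at 0.268, 0.0788 and 0.292, against at most 0.027 for libraries of different numbers. In classical monocytes these values were 0.118, 0.0572 and 0.181, against at most 0.0102. In the other classes checked and in whole libraries, not every same-numbered pair lay above the largest of the other pairs. Median depth fell with the library number in both groups, at 9354, 6102 and 2740 UMIs in normal 1 to 3 and 9381, 3979.5 and 1067 UMIs in AML 1 to 3. Whether the libraries are paired, and the part of depth in these correlations, was not tested.

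Leaving out 1 library at a time gave 0 to 8 in nonclassical monocytes and 0 to 2 in classical monocytes. It gave 0 to 7 in neutrophils, 0 to 3 in T cells, 0 to 2 in NK cells and 0 to 22 in whole libraries. Smaller classes are not counted here because such fits leave some groups with 1 library. In nonclassical monocytes, neutrophils, T cells, NK cells and whole libraries the highest count came without AML 3. There 14.3%, 0.801%, 0.475%, 0.98% and 18.7% of all genes were called. The interaction counts, left-out libraries added after seeing the data, were 0 to 8 against classical monocytes, 0 to 1 against alveolar macrophages, 0 to 4 against T cells and 0 to 3 against NK cells. Members higher in NK cells of normal lung were 0 to 1.

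At 2 times the free RNA level 15, 8, 10, 3, 12 and 7 members remained counted in nonclassical monocytes, alveolar macrophages, neutrophils, B cells, T cells and NK cells. The share of all genes past this rule is not given here. Without thinning the difference in the share of cells, AML minus normal, was -19.4 percentage points in alveolar macrophages, -4.16 in B cells, -11.5 in T cells and -9.39 in NK cells, and 0.244 in neutrophils against 12.9 with it. With 1 library left out it was -6.59 to 0.0995 in classical monocytes (0.0795 without normal 1, 0.0995 without AML 2) and -0.00628 to 1.39 in alveolar macrophages. In alveolar macrophages the change was -0.43 to 2.64 for Ly6a and -0.52 to 2.61 for Ifitm3, negative only without AML 3. AML 3, with a median of 1067 UMIs, limits every result it enters.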
